A study of Homo sapiens with 6 samples.

Results

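The RNA levels of 10 genes of the ERK feedback circuit (SPRY1, SPRY2, SPRY4, SPRED1, SPRED2, DUSP4, DUSP5, DUSP6, ETV1 and ETV5) were followed in H661 cells after knockdown of SALL4. The genes were taken by name, and all 10 were among the 18404 genes measured. Each had exactly 1 probe set that the platform annotation gives to that gene alone. H661 is a human large cell lung carcinoma line that expresses SALL4, a zinc finger transcription factor of stem cells. The SALL4-sh group (3 arrays) held cells treated with an shRNA against SALL4, and the Scr-sh group (3 arrays) held cells treated with a scrambled shRNA. Both groups were the same line in RPMI medium, with 10% serum per the labels. The methods section gives a different serum share. The hairpins came by lentivirus, and a single SALL4 hairpin is described, so that effects of its sequence and of SALL4 loss cannot be told apart. Whether the arrays of a group stand for independent cultures is not given, and the p-values measure only their spread, which may be technical.

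Growth factor receptors activate RAS, which passes the signal through RAF and MEK to the kinase ERK. Active ERK switches on genes whose products weaken the same cascade, and the RNA of these genes is therefore commonly read as a record of ERK output. The arrays measure RNA, and ERK activity was not measured on them. By immunoblot, the paper reports that SALL4 knockdown inactivated AKT but not MAPK (ERK) in H661. Sprouty and SPRED proteins act upstream, on the step between receptor and RAF. DUSP phosphatases remove the activating phosphates of ERK itself. ETV1 and ETV5 are ETS transcription factors that are induced through the pathway and carry it into the nucleus.

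SALL4 itself had intensities of 33.6, 31.9 and 26.5 in SALL4-sh and of 125, 104 and 130 in Scr-sh. Its log2 fold change was -1.97, with an adjusted p of 0.0159 by limma. With any 1 array left out it was -2.07 to -1.87, and the adjusted p was under 0.05 only without Scr-sh replicate 2. The values are normalized intensities on a linear scale, in which no value is lower than 8 and many are exactly 8, called the floor here. Arrays of the same group correlated at 0.969 to 0.980 over the 32321 probe sets (Pearson's r of log2 values) and arrays of different groups at 0.955 to 0.965. Of the cell type markers, EPCAM, KRT18 and VIM lay well above the floor, KRT8 and KRT19 close to it (8 to 15.0), and FN1 at it. CDH2, a mesenchymal marker, had 22.9 to 32.8. PTPRC, CD3E, PECAM1, VWF, CDH5 and DCN stood at 8 on all 6 arrays, and CD14 did not exceed 9.99. The collagen genes COL1A1 and COL1A2, both fibroblast markers, were above the floor and lower in all SALL4-sh samples. Their log2 fold changes were -0.48 and -0.79, with adjusted p-values of 0.0387 and 0.132 from limma. With any 1 array left out, the adjusted p of COL1A1 was 0.0778 to 0.131. CDH1, which encodes E-cadherin, was higher in all SALL4-sh samples (log2 fold change 0.91, adjusted p = 0.0456 from limma, with 1 Scr-sh value at the floor). With 1 array left out, the adjusted p of CDH1 was under 0.05 only without Scr-sh replicate 1 and otherwise reached up to 0.155. The other epithelial markers overlapped between the groups, with log2 fold changes of 0.07 (KRT8), -0.44 (KRT18), -0.11 (KRT19) and 0.43 (EPCAM). VIM (-0.35) and CDH2 (0.01) overlapped as well. The part of the CDH1 and collagen shifts in the results was not tested.

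The log2 fold changes of the 9 genes above the floor had both signs. SPRED1, DUSP6 and ETV1 had 1.63 to 1.97 times the Scr-sh level in SALL4-sh, SPRY4 had 1.41 times that level, and SPRED2 stood at 0.504 of it. SPRY1, SPRY2, DUSP5 and ETV5 overlapped between the groups, and DUSP4 was at the floor on every array. No gene of the 10 passed an adjusted p of 0.05 from limma over all 18404 genes, where 1.18% of genes were called higher and 1.33% lower. At an unadjusted p under 0.05, 4 were higher (SPRY4, SPRED1, DUSP6 and ETV1) and SPRED2 was lower, against 9.55% and 7.87% of all genes. When the weakest probe sets (mean intensity up to the 25th percentile) were left out, 9 of the 10 genes remained in the test. SPRED1, DUSP6 and ETV1 were then called higher and SPRED2 lower, against 5.95% and 5.54% of the 13803 genes tested. This filter removes genes that lie at or near the floor, and the log2 fold changes stay as they were. In bulk RNA, a change in every cell and a change in the share of cells that express a gene cannot be told apart.

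**Figure D1:**
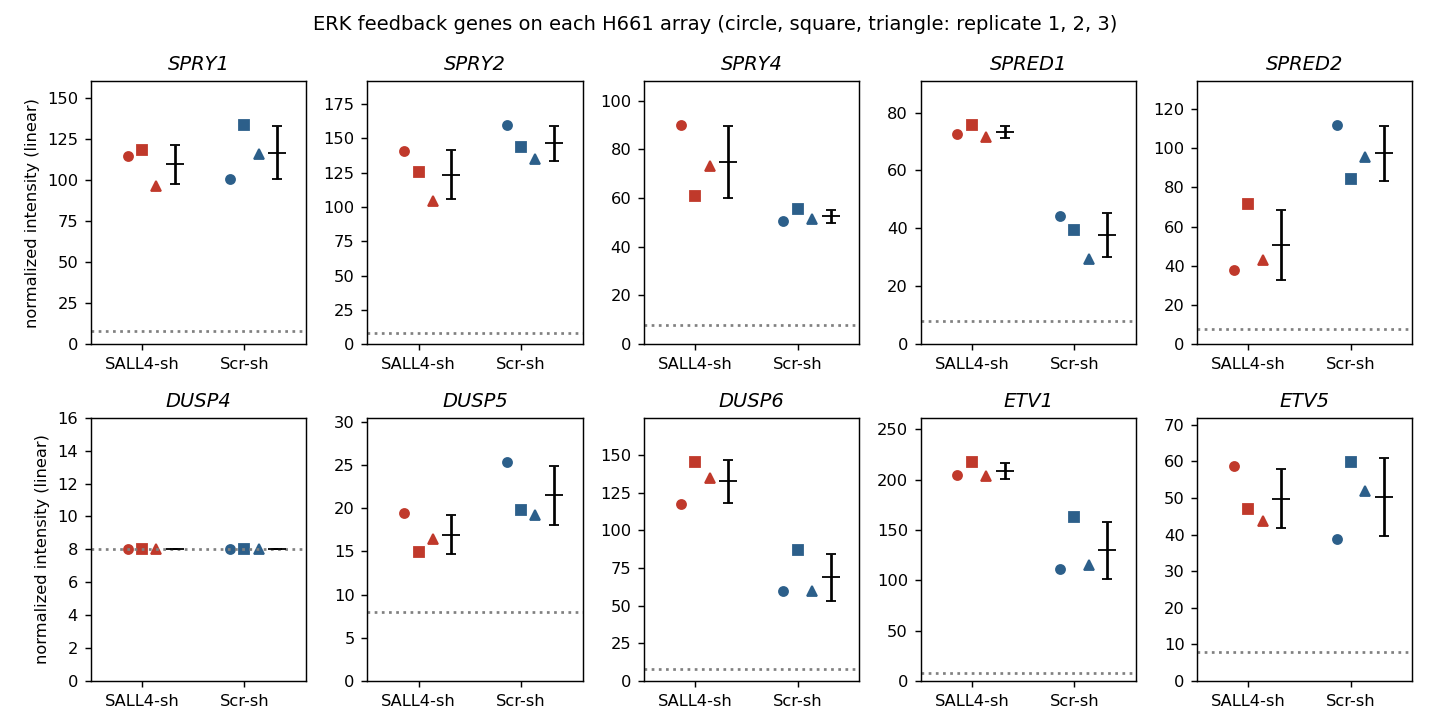
Normalized intensity (linear scale, vertical axes from 0) of the 10 genes on each array, with SALL4-sh in red on the left and Scr-sh in blue on the right of each panel. Circles, squares and triangles are replicates 1, 2 and 3, black bars with whiskers show the group mean with its SD (n = 3), and the floor of 8 is dotted. The groups are apart for SPRY4, SPRED1, SPRED2, DUSP6 and ETV1 and overlap for SPRY1, SPRY2, DUSP5 and ETV5.

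SPRED1 and SPRED2 encode membrane-bound relatives of Sprouty that recruit the RAS GTPase-activating protein neurofibromin and so keep RAS inactive. SPRED1 had intensities of 72.6, 75.7 and 71.7 in SALL4-sh and of 44.2, 39.4 and 29.4 in Scr-sh. The lowest SALL4-sh value was 1.62 times the highest Scr-sh value, the widest gap among the 10 genes. Its mean was 73.3 ± 2.13 in SALL4-sh and 37.7 ± 7.54 in Scr-sh (SD, n = 3 each). The level in SALL4-sh was 1.97 times that in Scr-sh, and the 95% confidence interval ran from 1.45 to 2.69 (0.98 ± 0.17 on the log2 scale, estimate and standard error, and adjusted p = 0.0756 by limma). By exact permutation of the arrays (two-sided) p was 0.1, the smallest that 3 arrays against 3 allow. With the weak probe sets left out, the adjusted p from limma was 0.0114. The 3 SALL4-sh values lay within a narrow band, and most of the spread came from Scr-sh, in which replicate 3 was lowest.

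SPRED2 had lower values in every SALL4-sh sample. Its intensities were 38.0, 71.3 and 42.8 in SALL4-sh and 111.9, 84.4 and 95.7 in Scr-sh. Replicate 2 of SALL4-sh was nearest to the Scr-sh arrays, and the lowest Scr-sh value was 1.18 times it. The mean was 50.7 ± 18.0 in SALL4-sh and 97.3 ± 13.8 in Scr-sh (SD, n = 3 each). The SALL4-sh level was 0.504 of the Scr-sh level, and the 95% confidence interval ran from 0.295 to 0.860 (-0.99 on the log2 scale, adjusted p = 0.192 from limma and 0.0316 with the weak probe sets left out). It was -1.26 without SALL4-sh replicate 2 and -0.81 without SALL4-sh replicate 1, and the adjusted p from limma was 0.110 to 0.408 with any 1 array left out.

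The contrast between the 2 SPRED genes was taken within each array, as the log2 difference SPRED1 minus SPRED2 relative to its Scr-sh mean, since the levels of different probe sets cannot be compared. It was 2.31, 1.47 and 2.12 in SALL4-sh and 0.04, 0.28 and -0.32 in Scr-sh. The ratio of SPRED1 to SPRED2 was thus 3.91 times as high in SALL4-sh, the largest difference of the 6 pairs within families that could be formed. The groups did not overlap in 5 of the 6 pairs, each of which holds a gene whose own groups did not overlap, so the count is no separate result. None of the pairs can fall below p = 0.1 in the exact permutation test (p = 0.12 for these 5 after adjustment over the 6 pairs). The choice of array hardly mattered for SPRED1 minus SPRED2, which ran from 1.80 to 2.22 with any 1 array left out.

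**Figure D2:**
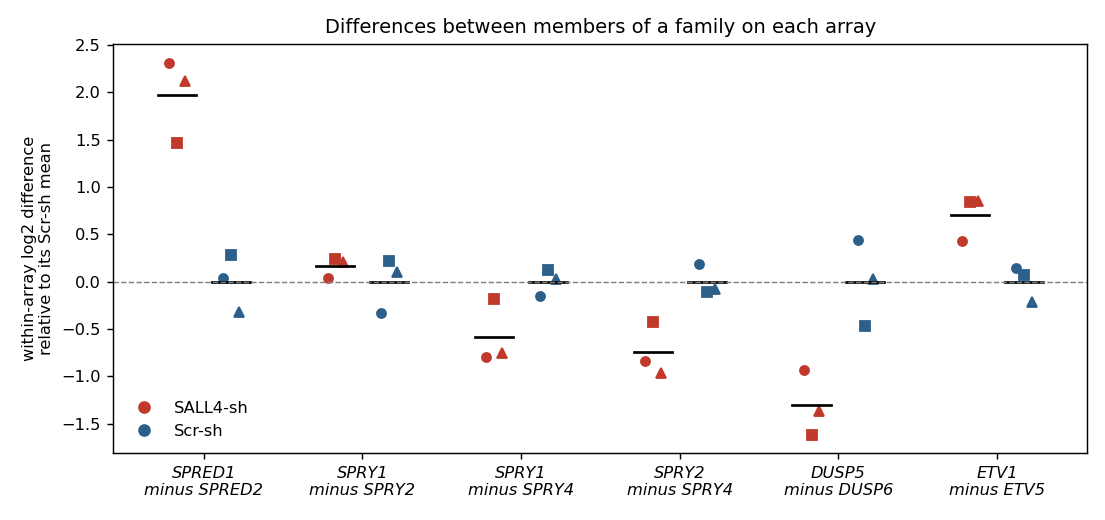
Within-array difference of the log2 intensities of 2 genes of a family, relative to its mean in Scr-sh, for 6 pairs of genes. Red points are SALL4-sh arrays and blue points Scr-sh arrays (circle, square and triangle for replicates 1, 2 and 3), and black bars are group means of 3 arrays. SPRED1 minus SPRED2 lies at 1.47 to 2.31 in SALL4-sh and within -0.32 to 0.28 in Scr-sh, and SPRY1 minus SPRY2 is the pair whose groups overlap.

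The DNA before the starts of the 2 SPRED genes is shown here because the values of these genes lay on opposite sides of Scr-sh. RefSeq windows of 250 bases that end at an annotated start were searched for 7 of the 10 genes (16 windows, build GRCh38.p14). DUSP5 and ETV5 had no window in the source used. DUSP4 is missing because the chromosome that holds it was left out of the search. The SPRED1 window, chr15:38252586-38252835 on the plus strand, was 78.4% G or C with 30 CpG dinucleotides, against medians of 58% and 11 over the 35116 windows of all genes. The window of the outer SPRED2 start, chr2:65432600-65432849 on the minus strand, was 58.8% G or C with 19 CpG, and that of the inner start was 39.2% G or C with 3. Windows of SPRY1 and SPRY2, whose groups overlapped, reached 68% and 70.4% G or C. Those of SPRY4 and DUSP6, which had higher values in SALL4-sh, had 65.6% and 57.2%. Whether base composition bears on the values was not tested. Neither SPRED gene held a match to the 3 motifs searched (ETS core, AP-1 and CIC, spelled out with the DUSP6 window), so both stand in lower case, 5′ to 3′ on the strand of the gene.
SPRED1: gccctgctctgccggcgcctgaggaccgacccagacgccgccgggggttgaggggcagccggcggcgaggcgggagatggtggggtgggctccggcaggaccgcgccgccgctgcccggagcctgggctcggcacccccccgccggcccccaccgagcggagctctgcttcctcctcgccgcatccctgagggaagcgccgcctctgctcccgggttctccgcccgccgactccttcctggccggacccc
SPRED2: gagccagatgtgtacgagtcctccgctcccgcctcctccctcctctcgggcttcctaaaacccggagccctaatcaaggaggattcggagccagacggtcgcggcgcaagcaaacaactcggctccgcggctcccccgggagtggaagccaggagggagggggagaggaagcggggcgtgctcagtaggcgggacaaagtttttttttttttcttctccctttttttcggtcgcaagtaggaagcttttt

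The Sprouty genes encode cytosolic inhibitors that are drawn to the membrane after receptor activation. They bind adaptors and RAF and dampen signaling from FGF and other receptors. SPRY4 had intensities of 90.0, 60.8 and 73.3 in SALL4-sh and of 50.6, 55.6 and 51.3 in Scr-sh. Every SALL4-sh value exceeded every Scr-sh value, although the nearest ones were only 1.09-fold apart. The log2 fold change of SPRY4 was 0.49 (95% confidence interval 0.06 to 0.92, adjusted p = 0.233 from limma and 0.124 with the weak probe sets left out).

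SPRY1 and SPRY2 overlapped between the groups. SPRY1 had 115.1, 118.3 and 96.2 in SALL4-sh and 101, 134 and 116 in Scr-sh, with a log2 fold change of -0.09 (95% confidence interval -0.47 to 0.29). SPRY2, which also binds the ubiquitin ligase CBL, had 140.5, 126 and 105 in SALL4-sh and 160 (replicate 1), 144 and 135 in Scr-sh. Its log2 fold change was -0.25 (95% confidence interval -0.61 to 0.11, adjusted p = 0.481 from limma), and 1 SALL4-sh value lay among the Scr-sh values. Within arrays, SPRY1 minus SPRY4 differed by -0.58 and SPRY2 minus SPRY4 by -0.74 on the log2 scale, without overlap of the groups but with p = 0.12 in the exact permutation test after adjustment over the 6 pairs. SPRY1 minus SPRY2 differed by 0.16, and its groups overlapped (exact permutation p = 0.6, two-sided).

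DUSP6, a cytoplasmic phosphatase specific for ERK, had intensities of 118, 146 and 135 in SALL4-sh and of 59.4, 87.1 and 59.8 in Scr-sh. The lowest SALL4-sh value was 1.35 times the highest Scr-sh value, which was that of replicate 2. The mean was 133 ± 14.1 in SALL4-sh and 68.8 ± 15.9 in Scr-sh (SD, n = 3 each). The level in SALL4-sh was 1.95 times that in Scr-sh, and the 95% confidence interval ran from 1.36 to 2.80 (0.97 ± 0.19 on the log2 scale, estimate and standard error, and adjusted p = 0.102 by limma and 0.0151 with the weak probe sets left out). Leaving out Scr-sh replicate 2 gave DUSP6 a log2 fold change of 1.15 and an adjusted p of 0.0487 by limma. Without any other array it was 0.87 to 1.05, with adjusted p-values of 0.199 to 0.266 by limma.

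DUSP5, the nuclear phosphatase specific for ERK, lay nearer to the floor. It had 19.4, 15.0 and 16.5 in SALL4-sh and 25.4, 19.8 and 19.3 in Scr-sh. Only SALL4-sh replicate 1 reached into the range of Scr-sh, and the log2 fold change was -0.34 (95% confidence interval -0.76 to 0.08, adjusted p = 0.404 from limma). Within arrays, DUSP5 minus DUSP6 differed by -1.31 on the log2 scale, so that the ratio of DUSP5 to DUSP6 stood at 0.404 of its Scr-sh level, without overlap. DUSP4, another nuclear phosphatase of the family, read 8 on all 6 arrays. A difference of DUSP4 below the floor could not have been seen, and no fold change is given for it.

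ETV1, an ETS factor that is an oncogene in several tumors, had intensities of 205, 218 and 203 in SALL4-sh and of 111, 163 and 116 in Scr-sh. The mean was 209 ± 7.89 in SALL4-sh and 130 ± 28.4 in Scr-sh (SD, n = 3 each). The 3 SALL4-sh values lay close together, and the nearest ones of the groups were 1.25-fold apart, with Scr-sh replicate 2 again the highest of its group. The log2 fold change was 0.71 (95% confidence interval 0.26 to 1.15, adjusted p = 0.135 from limma and 0.0395 with the weak probe sets left out). Without Scr-sh replicate 2 it was 0.88, with an adjusted p of 0.0255 from limma, and without any other array 0.61 to 0.72, with 0.270 to 0.330.

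ETV5, a close relative of ETV1, had 58.9, 46.9 and 43.7 in SALL4-sh and 38.9, 59.9 and 51.9 in Scr-sh. The groups overlapped almost fully, and the fold was 0.998 (95% confidence interval 0.672 to 1.48), which leaves room for moderate changes in either direction. Within arrays, ETV1 minus ETV5 was higher in every SALL4-sh sample than in every Scr-sh sample, by 0.71 on average on the log2 scale.

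**Figure D3:**
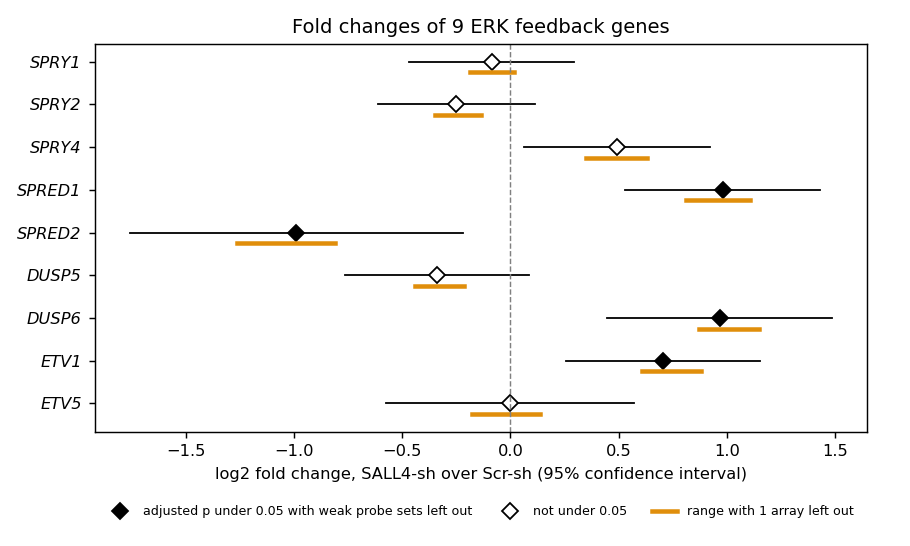
Log2 fold change of SALL4-sh over Scr-sh (horizontal axis) for the 9 genes above the floor. Diamonds and black lines are the limma estimate and its 95% confidence interval (n = 3 arrays per group), orange lines are the range with any 1 array left out, and filled diamonds passed an adjusted p of 0.05 once weak probe sets were left out. SPRED1 (0.98), DUSP6 (0.97), ETV1 (0.71) and SPRY4 (0.49) lie to the right of 0 and SPRED2 (-0.99) to the left.

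The windows before the starts of DUSP6 and ETV1 are shown because both genes had higher values in SALL4-sh and their windows hold the core of the ETS motif. The motifs searched on both strands were CGGAA (the ETS core), TGANTCA (AP-1) and TGAATGNA (the site of CIC, a repressor of ETV and DUSP genes), and no matches of different motifs overlapped in the windows below. The DUSP6 window, chr12:89352502-89352751 on the minus strand, had 3 matches to CGGAA, which start 155, 144 and 61 bases before the gene. Of the ETV1 windows, chr7:13990703-13990952 on the minus strand had 2 such matches. A further ETV1 window, chr7:13991426-13991675 on the minus strand, had 1 match to CGGAA and 1 to the CIC motif, with the bases TGAATGGA. Capitals mark the matches, which read TTCCG where the core lies on the other strand.
DUSP6: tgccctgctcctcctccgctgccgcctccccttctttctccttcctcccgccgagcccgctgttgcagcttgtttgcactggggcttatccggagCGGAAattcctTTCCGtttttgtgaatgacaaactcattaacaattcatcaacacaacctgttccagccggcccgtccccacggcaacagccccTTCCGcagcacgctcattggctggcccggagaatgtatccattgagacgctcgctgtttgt
ETV1, window from 13990703: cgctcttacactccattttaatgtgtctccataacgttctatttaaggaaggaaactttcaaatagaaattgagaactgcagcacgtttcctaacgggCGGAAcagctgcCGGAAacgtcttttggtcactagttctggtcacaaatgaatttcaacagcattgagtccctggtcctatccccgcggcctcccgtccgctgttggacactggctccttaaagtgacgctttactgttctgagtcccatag
ETV1, window from 13991426: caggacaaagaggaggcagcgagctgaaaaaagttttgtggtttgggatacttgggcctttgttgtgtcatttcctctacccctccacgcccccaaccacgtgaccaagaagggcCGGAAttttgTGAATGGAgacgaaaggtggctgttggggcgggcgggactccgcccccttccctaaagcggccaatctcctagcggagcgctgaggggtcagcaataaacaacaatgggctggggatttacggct

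The ETS core stood in 6 of the 16 windows (of DUSP6, ETV1, SPRY1 and SPRY2), against 30.3% of all windows, and some windows of a gene overlap. SPRY1 and SPRY2, whose groups overlapped, had the motif as well, and SPRED1, SPRED2 and SPRY4, whose groups did not, lacked it. The CIC motif stood in 1 of the 16 windows, against 3.25% of all windows, and the AP-1 motif in 0 of the 16, against 6.57%. A match of letters is a description of the sequence and not evidence that a factor binds there.

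The arrays did not all place the genes alike. In Scr-sh, replicate 2 had the highest value of its group for 5 of the 9 genes above the floor (SPRY1, SPRY4, DUSP6, ETV1 and ETV5), and replicate 1 had it for the other 4. In SALL4-sh, replicate 2 was highest for 5 genes and replicate 1 for 4, and replicate 3 was highest for none. On the log2 scale, relative to each gene's mean over the 6 arrays, Scr-sh replicate 2 stood at -0.12 for DUSP6 and -0.01 for ETV1, whereas the other Scr-sh arrays lay at -0.67 and -0.66 for DUSP6 and at -0.55 and -0.50 for ETV1.

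**Figure D4:**
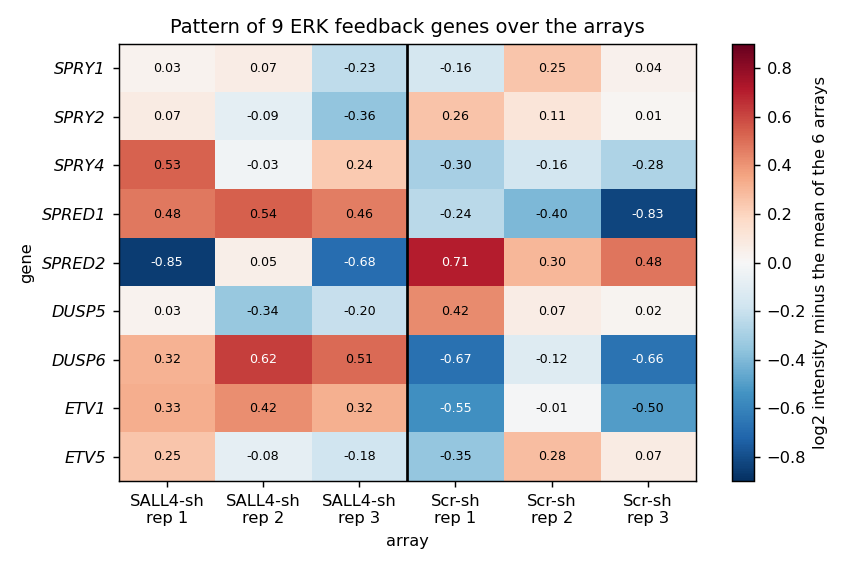
Log2 intensity of the 9 genes above the floor on each array, as the difference from the gene's mean over the 6 arrays (color scale, values printed in the cells). Columns are the 3 SALL4-sh arrays and then the 3 Scr-sh arrays. SPRED1, DUSP6 and ETV1 are above their mean on all SALL4-sh arrays and below it on all Scr-sh arrays, and SPRED2 is above its mean on SALL4-sh replicate 2 as well as on the Scr-sh arrays.

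Other genes of the same families and pathway were read from 4 lists. These were written from general knowledge but with earlier results of these data known, so their counts and medians are a description. All 10 listed relatives (SPRY3, SPRED3, ETV4 and 7 further DUSP genes) were measured, and none passed the adjusted threshold of limma. At an unadjusted p under 0.05, 0 of the 10 were higher and 1 was lower, against 9.55% and 7.87% of all genes. DUSP1, an immediate-early phosphatase of stress kinases and ERK, had 65.7 ± 17.2 in SALL4-sh and 101 ± 16.2 in Scr-sh (SD, n = 3 each), that is -0.64 on the log2 scale (adjusted p = 0.288 from limma). DUSP16, a phosphatase that prefers JNK and p38, had a log2 fold change of -0.62 and DUSP2, a nuclear phosphatase of immune cells, of 0.28. The groups of DUSP1 and DUSP16 did not overlap, and of the genes above the floor on any array 12.5% were lower in this sense and 15.0% higher. Among the 10 feedback genes, 4 were higher and 1 was lower in that sense. Of the lists below, the RAS-ERK cascade had 4 higher and 2 lower of 11 genes measured. The partners and regulators had 4 and 2 of 17, and the other ERK-induced transcripts 1 and 2 of 18.

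Of 16 listed genes of the RAS-ERK cascade, 11 had a probe set of their own. SOS2, an exchange factor that loads RAS with GTP, was the gene of this list to pass the threshold, with 179 ± 8.59 in SALL4-sh and 97.1 ± 12.1 in Scr-sh (SD, n = 3 each, log2 fold change 0.89, adjusted p = 0.0403 from limma). With 1 array left out, its adjusted p was under 0.05 only without Scr-sh replicate 2 and otherwise reached up to 0.140. With the weak probe sets left out, 2 of the 11 were called higher and 2 lower, against 5.95% and 5.54% of the genes tested. Beside SOS2, MAP2K1, which encodes MEK1, was then called higher (log2 fold change 0.78). GRB2, the adaptor between receptors and SOS, and ARAF, a RAF kinase, were called lower (log2 fold changes -1.34 and -0.87). These 3 were named after their values had been seen.

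Of 20 partners and regulators of the feedback genes, 17 were measured and none passed the adjusted threshold of limma (4 higher and 2 lower of 17 at an unadjusted p under 0.05, against 9.55% and 7.87% of all genes). CAV1, which encodes caveolin-1, a binding partner of Sprouty proteins, had 61.7 ± 4.97 in SALL4-sh and 135 ± 26.1 in Scr-sh (SD, n = 3 each, log2 fold change -1.11, adjusted p = 0.0632 from limma and 0.00699 with the weak probe sets left out). CBL, the ligase bound by SPRY2, had a log2 fold change of 1.04, and COP1, a ligase that marks ETV proteins for degradation, of 0.56 (adjusted p = 0.103 from limma). NF1, the partner of the SPRED proteins, and CIC were singled out after their values had been seen. Their log2 fold changes were -0.04 and -0.06, with overlapping groups.

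Of 20 other transcripts that ERK signaling commonly induces, 18 were measured. At the adjusted threshold of limma, 0 of the 18 were higher and 1 was lower, against 1.18% and 1.33% of all genes. HBEGF, a ligand of the EGF receptor, was called lower, with 140, 121 and 135 in SALL4-sh and 239, 243 and 290 in Scr-sh (log2 fold change -0.96, adjusted p = 0.0336 from limma). Its groups were well apart, but with any 1 array left out the adjusted p was 0.0662 to 0.122. None of the list was called higher, and PHLDA1, picked after its values had been seen, was the only one of it with higher values in every SALL4-sh sample (log2 fold change 0.61). With genes at the floor on all arrays left out, the median log2 fold change was -0.08 in this list and 0.26 in the cascade. It was -0.06 in the partners, 0.13 in the relatives and -0.00 in the 9 feedback genes left, against 0.01 over all genes.

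**Figure D5:**
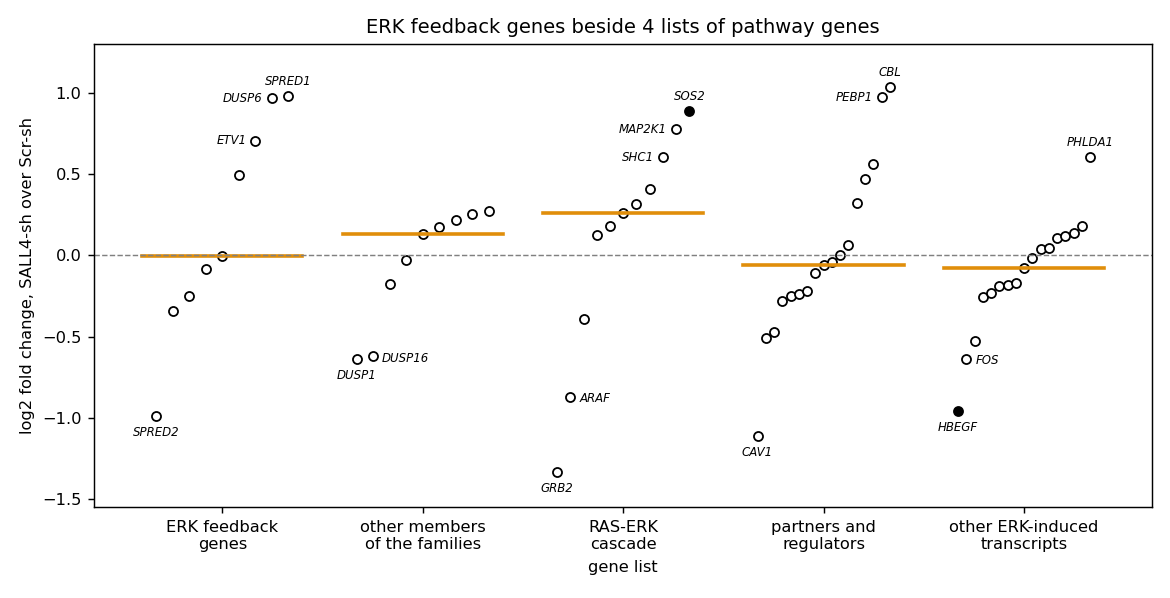
Log2 fold change of SALL4-sh over Scr-sh (vertical axis) for the ERK feedback genes and 4 lists of pathway genes. Each circle is 1 gene (3 arrays per group), filled circles passed an adjusted p of 0.05 from limma over all genes, orange bars are list medians, and genes at the floor on all arrays are not drawn. The feedback genes run from -0.99 (SPRED2) to 0.98 (SPRED1), and SOS2 and HBEGF are the filled circles.

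SPRED1 had the smallest p of the 10 genes, and the genes nearest to it across the 6 arrays were taken by the Euclidean distance of log2 values, each relative to the gene's own mean. Among 12056 genes without a floor value, these were BPTF, a subunit of a chromatin remodeling complex (distance 0.0609), GTF3C3, a subunit of a factor for RNA polymerase III (0.115), and SNAPC1, a subunit of the complex that starts small nuclear RNA genes (0.196). BPTF had 231.1, 241 and 231.1 in SALL4-sh and 142, 131 and 97.4 in Scr-sh, with the same order of the Scr-sh arrays as SPRED1. The 3 genes were chosen for their likeness, and their values are a description over 6 arrays.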

How the data were processed

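Total RNA of H661 cells was hybridized to 6 Affymetrix arrays (3 SALL4-sh, 3 Scr-sh), with RNA taken by Trizol per the labels and by a column kit per the methods. The authors normalized the arrays with RMA (version not given in the sources used here), and the deposited values are intensity on a linear scale with a floor of 8, at which 38.8% to 40.4% of the values of an array stood. All sample columns were used. Of 32321 probe sets, 19158 carried 1 symbol in the platform annotation, and the brightest per gene gave 18404 genes. The log2 values were fitted by limma 3.58.1 (R 4.3.3), with Benjamini-Hochberg adjustment over all genes. Precision is limited by having 6 arrays. Single differences were tested by exact permutation. The methods' one-way ANOVA, other normalizations, a 25th percentile filter on mean intensity, a replicate block and leaving out each array were alternatives. Scripts were tested on simulated data. The feedback genes and the lists were chosen with earlier results of these data known. Named by rule were SALL4, the 10 feedback genes, the cell type markers, the called genes of each list or otherwise its 3 smallest p-values. The 3 genes nearest to SPRED1 were also named by rule. MAP2K1, GRB2, ARAF, NF1, CIC and PHLDA1 were named after their values had been seen. Some listed genes are not reported here. Sequences are from RefSeq (GRCh38.p14).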

Additional observations from a re-analysis of the deposited data

How the results depend on the processing

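Leaving out the weak probe sets gave 821 genes higher and 764 lower, with 3 feedback genes higher (SPRED1, DUSP6 and ETV1) and 1 lower (SPRED2), against 218, 244, 0 and 0 in the test over all genes. The prior degrees of freedom, the weight that limma gives to the variance shared by all genes, were 0.42 over all genes. They were 5.33 with the weak probe sets left out. The trended and robust variance gave 26 genes higher and 50 lower, and the ANOVA 47 and 64, both with 0 feedback genes. No gene of the 4 pathway lists passed the adjusted ANOVA. An unadjusted p under 0.05, added after seeing the data, gave 1757 and 1449 genes, with 4 and 1 feedback genes. With 1 array left out there were 23 to 231 genes higher and 29 to 173 lower, the highest counts without Scr-sh replicate 2 and at most 48 and 70 without any other array, with 0 to 2 feedback genes higher and 0 lower. The 2 were DUSP6 and ETV1, without Scr-sh replicate 2. SALL4 then ran from -2.07 to -1.87 on the log2 scale, with an adjusted p from limma of 0.0309 without Scr-sh replicate 2 and of up to 0.0741 otherwise. SPRY1 ran from -0.19 to 0.02 and ETV5 from -0.18 to 0.14, so that their signs turned. The turned values were 0.0065 (without SALL4-sh replicate 3) and 0.016 (without Scr-sh replicate 2) for SPRY1, and 0.036, 0.086, 0.14 and 0.032 (without SALL4-sh replicates 2 and 3 and Scr-sh replicates 2 and 3) for ETV5. SPRY1 minus SPRY2 ran from -0.0012 to 0.28. Loess, quantile and median scaling and the mean of probe sets kept all counts within the limit of 1.5 times. The cause of these changes was not tested. The deviations of same-numbered arrays from their group means correlated at r = 0.152, 0.122 and -0.0020 over 12057 genes. Those of differently numbered arrays ran from -0.168 to 0.044. These weak values do not settle whether the replicate numbers pair the arrays. With the replicate block, 3 genes were higher and 7 lower, none of them a feedback gene, and SALL4 had -1.97 with an adjusted p of 0.115 from limma. Pairs with DUSP4 were not run, since it stood at the floor, and changes below 8 cannot be seen.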
